A study of Mus musculus with 18 samples.

Results

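The mitochondrial carrier family was followed across the kidney cortex of 5 mouse strains after challenge with antibody to the glomerular basement membrane (anti-GBM). Members were taken by gene symbol, as every Slc25a or Ucp gene listed for B6 and NZW, which gave 43 genes with 62 of the 46643 probes. The arrays of BALB/C, DBA1 and 129/svj are a separate table with no gene symbols, and 14 of its 46147 rows, for 13 genes, carry the search key of a member. All mice were 2 months old and all had received anti-GBM antibody, so no strain has an unchallenged control. B6 and BALB/C are labelled resistant to anti-GBM nephritis, and NZW, DBA1 and 129/svj are labelled sensitive. Each strain had 3 samples numbered in the labels and taken as 3 mice, and mouse 1 of BALB/C, DBA1 and 129/svj had a repeat array that was averaged with the first. That leaves 15 mice on 18 Illumina Mouse WG-6 v1 BeadChip arrays, and p-values measure the spread between these samples. The markers show kidney tubule: 9 of 10 proximal tubule genes and 8 of 8 genes of the loop of Henle, distal tubule and collecting duct passed the detection filter in B6 and NZW, which does not tell cortex from whole kidney. No skeletal muscle marker passed it.

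Mitochondrial carriers are small proteins of the inner mitochondrial membrane that share a fold built of repeats and move metabolites between the cytosol and the matrix. They exchange ADP for ATP, bring in phosphate, pass citrate, malate, glutamate, aspartate and ornithine, and deliver cofactors, glutathione and iron. The uncoupling proteins are a branch of the same family, in which Ucp1 of brown fat lets protons leak back into the matrix. The proximal tubule of the kidney cortex is rich in mitochondria and depends on oxidative metabolism for reabsorption.

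Values are background-corrected and quantile-normalized log2 intensities, set on a common scale within each table only, so strains were compared within a table. Intensities of different carriers were not ranked against each other. A probe was tested when its detection p was 0.05 or less in at least 3 mice of its table. In B6 and NZW 38 member probes for 31 genes were tested, 37 of them detected in all 6 mice, while 24 probes were not tested and 23 of these were detected in no mouse. In the other strains 11 of the 14 rows, for 10 genes, were tested. A difference was called at a Benjamini-Hochberg adjusted p below 0.05 in limma, adjusted over all tested probes of the table.

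Of the 38 carrier probes tested between B6 and NZW, 8 differed, 2 higher and 6 lower in B6. The single probe of the glutathione carrier Slc25a39 read 12.8-fold higher in B6, and Slc25a25, an ATP-Mg/phosphate carrier, was 1.51-fold higher. Ucp2 was 2.08-fold lower in B6, the basic amino acid carrier Slc25a29 1.79-fold lower, and the glutamate carrier Slc25a22 1.51-fold lower. The pyrimidine nucleotide carrier Slc25a33 and 1 of the 2 probes of both the ornithine carrier Slc25a15 and the dicarboxylate carrier Slc25a10 were lower by smaller amounts. The 8 calls are 21.1% of the members tested, beside 18.8% of all 16766 probes called in this comparison (9.24% higher and 9.6% lower in B6), so the share of carriers called was near that of all probes. The median difference over the tested members was -0.14 on the log2 scale (B6 minus NZW), against -0.04 over all tested probes. Below 0 were 29 of the 38, beside 56.2% of all tested probes. In 20 of the 38 the mice of the strains did not overlap, beside 37.3% of all tested probes. Both shares were above those of all probes, and neither was tested. The split of calls moved with the scaling: with each array scaled to its 75th percentile the median of all probes was -0.13, 1352 probes were higher and 2269 lower, and 1 carrier probe was higher and 11 lower.

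**Figure D1:**
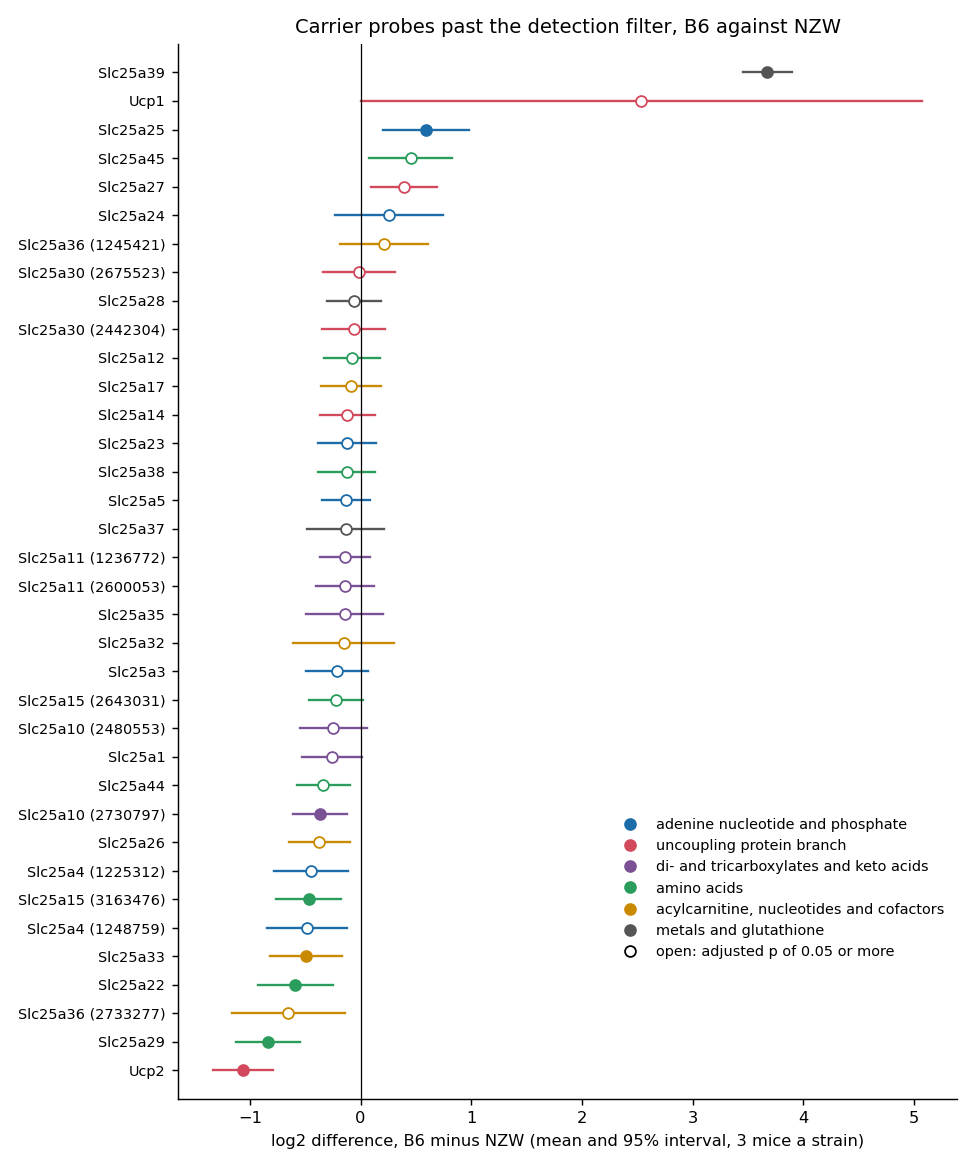
Log2 difference between B6 and NZW (x axis) for 36 of the 38 carrier probes tested (y axis, with the number of the Illumina probe where a gene has more than 1 tested). Points are differences of the means of 3 mice a strain, lines 95% intervals, colours the transport group, and filled points the 8 probes past the threshold. Slc25a39 stands at 3.68 with a narrow interval, Ucp1 has the widest interval, and most other probes lie just below 0.

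The promoter windows of the 3 genes with the largest called differences are shown as the reference sequence behind these genes. They run from 250 bases before to 50 after the RefSeq start site (mouse build GRCm38.p6), for Slc25a39 at chr11:102407468-102407767 on the minus strand, Ucp2 at chr7:100493108-100493407 on the plus strand, and Slc25a29 at chr12:108835827-108836126 on the minus strand. All 43 symbols were found among RefSeq symbols. Capitals mark matches, on either strand, of 4 short motifs: the antioxidant response element core TGACNNNGC, the E-box CACGTG, the cyclic AMP response element TGACGTCA, and CCAAT.
Slc25a39: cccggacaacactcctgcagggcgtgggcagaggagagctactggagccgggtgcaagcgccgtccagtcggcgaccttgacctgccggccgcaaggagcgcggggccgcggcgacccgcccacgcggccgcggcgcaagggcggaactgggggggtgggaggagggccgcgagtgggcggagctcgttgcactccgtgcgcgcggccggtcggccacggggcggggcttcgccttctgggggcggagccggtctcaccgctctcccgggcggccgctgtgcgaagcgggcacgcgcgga
Ucp2: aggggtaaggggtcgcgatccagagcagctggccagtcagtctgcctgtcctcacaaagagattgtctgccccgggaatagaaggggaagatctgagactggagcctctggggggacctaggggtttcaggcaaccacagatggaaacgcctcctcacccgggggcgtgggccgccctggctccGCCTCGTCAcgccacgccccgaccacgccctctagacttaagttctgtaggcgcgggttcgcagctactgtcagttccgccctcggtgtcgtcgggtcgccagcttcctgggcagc
Slc25a29: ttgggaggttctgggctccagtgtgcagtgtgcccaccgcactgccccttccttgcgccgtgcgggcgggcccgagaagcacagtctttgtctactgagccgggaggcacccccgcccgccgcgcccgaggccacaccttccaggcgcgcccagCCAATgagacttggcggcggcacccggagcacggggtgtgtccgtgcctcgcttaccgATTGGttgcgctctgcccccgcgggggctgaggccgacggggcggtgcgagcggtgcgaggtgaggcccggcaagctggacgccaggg
The Ucp2 window holds the antioxidant response element core once, on the reverse strand from position 185 to 193 of the window, and 12.4% of all 32851 promoter windows hold a match. The Slc25a29 window holds CCAAT from position 155 and again, reversed, from position 213, and 37.4% of windows hold that motif. The Slc25a39 window has none of the 4 letter strings. E-boxes were in 7.15% and cyclic AMP response elements in 1.79% of windows. A match is a string of letters and was not tested for binding.

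Slc25a39 was the carrier that set B6 and NZW furthest apart. It is an inner membrane protein needed for glutathione to enter mitochondria, and its gene is on chromosome 11 in the array annotation. The intensities were 13.52, 13.55 and 13.55 in B6 mice 1, 2 and 3 and 9.87, 9.91 and 9.81 in NZW. Every B6 mouse was far above every NZW mouse, and the mice of a strain differed by less than 0.1. The difference was 3.68 (SE 0.10, limma adjusted p = 9.8e-08). In the deposited intensities, before any correction, B6 ranged from 10767 to 11768 and NZW from 836 to 1128. The probe was detected in all 6 mice, is the only probe of this gene on the table, and has no key in the other table, so DBA1, 129/svj and BALB/C were not read. Probe sequences are not among the sources used here, so for this as for any probe a strain difference in the sequence under the probe and one in transcript level cannot be told apart. Erythroid markers were higher for 3 of 13 probes in B6, all of them probes of Hbb-b1, with summed deposited intensities of 349433, 187807 and 240747 in B6 mice 1, 2 and 3 and 262960, 194856 and 168345 in NZW, in each mouse with the largest part from a probe of Hbb-b1. The sums overlapped between the strains, but 1 Hbb-b1 probe read 14.99, 14.29 and 14.66 in B6 and 11.22, 10.35 and 10.85 in NZW, without overlap. The part of erythroid RNA in the Slc25a39 difference was not tested. Slc25a40, the close relative of Slc25a39 in glutathione transport, had 3 probes and none was detected in any mouse.

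Iron enters mitochondria through the mitoferrins. Slc25a28, mitoferrin 2, read 12.11, 12.10 and 12.15 in B6 and 12.04, 12.27 and 12.22 in NZW, and the strains overlapped (difference -0.06, 95% interval -0.30 to 0.19). Slc25a37, mitoferrin 1, which supplies iron for haem in red cell precursors, read 8.14, 7.75 and 7.70 in B6 and 7.83, 7.98 and 8.17 in NZW, again overlapping (-0.14, interval -0.48 to 0.21). Of the 3 probes tested in the group of metals and glutathione, 1 was higher in B6, beside 9.24% of all tested probes. The others did not pass the test.

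Among the uncoupling proteins only Ucp2 passed the threshold. Ucp2 moves small metabolites across the inner membrane and is best known from immune cells and from tissues under oxidative stress. Its detected probe read 11.53, 11.54 and 11.28 in B6 and 12.56, 12.39 and 12.58 in NZW. All B6 mice were below all NZW mice, with a difference of -1.06 (SE 0.12, adjusted p = 0.00038). The other 2 probes of Ucp2 were detected in no mouse, and neither bears on the difference. Of 10 leukocyte marker probes tested, 1 was called, that of Cd52, which was detected in the 3 B6 mice only and so passed the filter through the strain where it is high. It read 5.52, 6.32 and 5.82 in B6 and 5.07, 4.84 and 4.80 in NZW. The summed leukocyte intensity was 3996, 8599 and 5181 in B6 and 4741, 4187 and 4401 in NZW, with the largest part from Lyzs in B6 mouse 1 and from S100a8 in the other mice. The leukocyte sums overlapped, and their part in the Ucp2 difference was not tested.

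**Figure D2:**
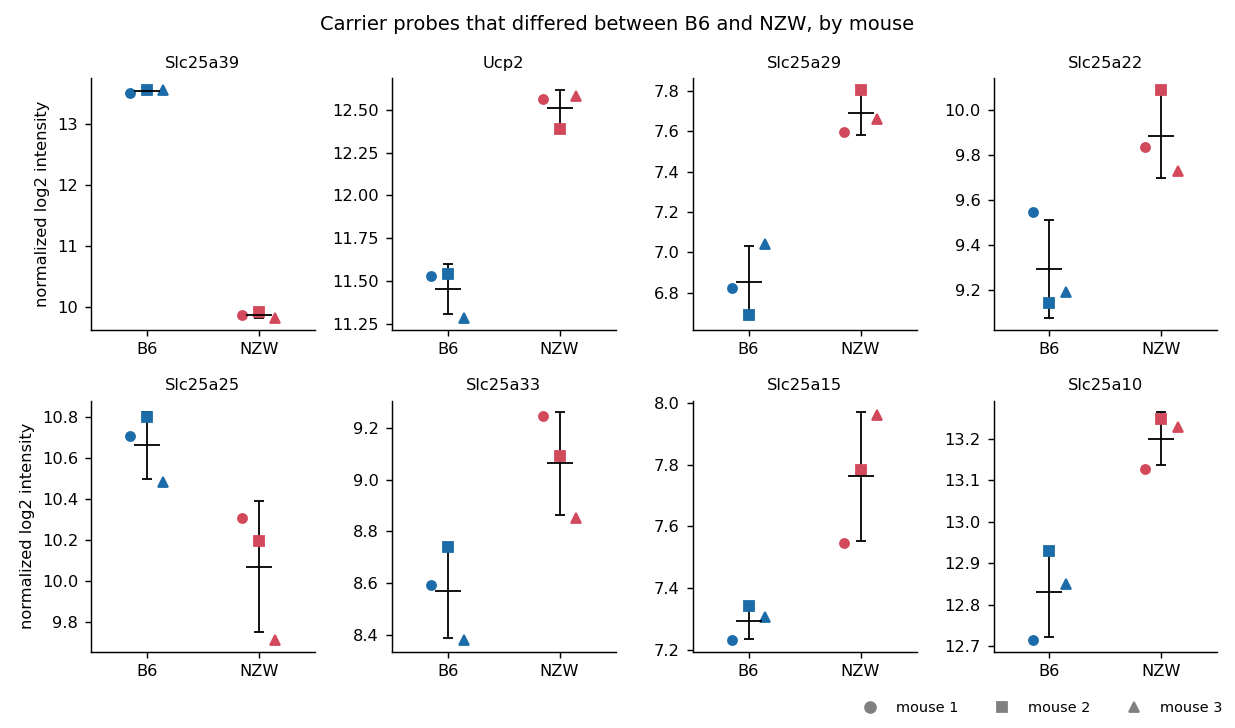
Normalized log2 intensity (y axis, its own range in each panel) in each of 3 B6 and 3 NZW mice (x axis) for the 8 carrier probes that differed, with the mean and SD as bars. No B6 mouse overlaps an NZW mouse in any panel, and the gap for Slc25a39 is over 3 units on this log2 axis.

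Ucp1, the proton leak protein of brown fat, was detected in 3 of 6 mice and varied more within B6 than any other carrier. It read 5.02, 10.52 and 7.51 in B6 mice 1, 2 and 3, and 5.64, 4.98 and 4.82 in NZW mice 1, 2 and 3. B6 mice 2 and 3 were above all others, B6 mouse 1 lay within the NZW range, and NZW mouse 1 was the third mouse with a detected signal. The difference of 2.54 (SE 1.11, adjusted p = 0.15) was not called. Without B6 mouse 2 it was 1.12 (adjusted p = 0.31), and without B6 mouse 1 it was 3.87 and called (adjusted p = 0.013). Mouse 2 was the highest of B6 and mouse 1 the lowest, so the direction of both shifts was fixed. The fat markers moved with Ucp1 in part. Their summed deposited intensity was 3648, 9909 and 3248 in B6 and 3592, 3617 and 2517 in NZW. The largest part came from Cfd in B6 mouse 2 (51.3% of the sum) and from Cox7a1 in the other mice. Of 11 fat markers 6 passed the filter and 1, Cfd, was called higher in B6, while Fabp4, Plin, Elovl3, Retn and Lep were detected in no mouse. Cidea, a brown fat protein, read 5.32, 9.18 and 6.02 in B6 and between 5.08 and 5.19 in NZW. It was detected in the 3 B6 mice only and so passed the filter through the strain where it is high. Adipoq, made by fat cells, read 6.50, 9.21 and 6.13 in B6 and 5.28 to 6.17 in NZW. Cox8b, a brown fat and muscle subunit, read 8.56, 10.45 and 9.44 in B6 and 8.37, 9.35 and 8.32 in NZW. Both Adipoq and Cox8b overlapped between the strains. B6 mouse 2 was thus highest for Ucp1, Cidea, Adipoq, Cfd, Cidec and Cox8b alike, but not for Cox7a1. In bulk tissue, more cells of a type and more RNA per cell cannot be told apart, and the part of fat in the other carrier values was not tested.

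**Figure D3:**
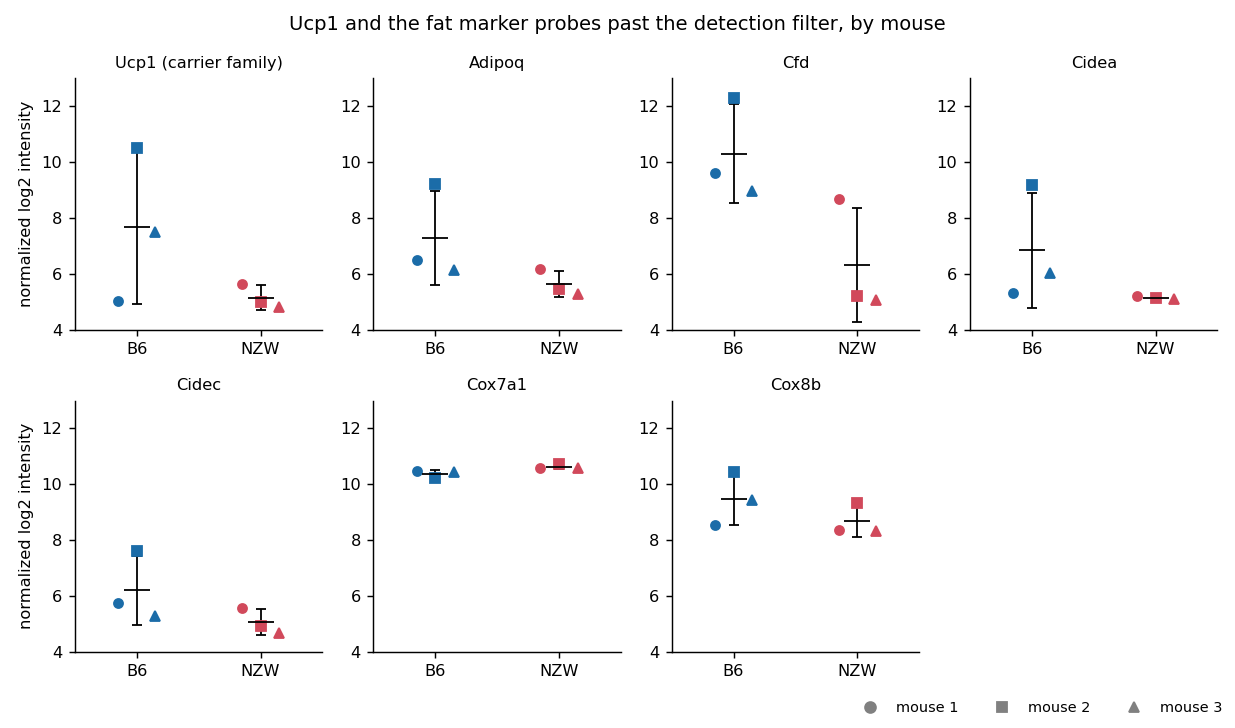
Normalized log2 intensity (y axis) of Ucp1 and of the 6 fat marker probes past the detection filter in each of 3 B6 and 3 NZW mice (x axis), with the mean and SD as bars. B6 mouse 2 (square) reaches 10.52 for Ucp1 and is the highest mouse in every panel but that of Cox7a1.

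The other carriers of the uncoupling branch did not pass the test. Slc25a27, also called UCP4, read 6.47, 6.78 and 6.65 in B6 and 6.32, 6.05 and 6.35 in NZW, without overlap (difference 0.39, SE 0.13, adjusted p = 0.071), and its second probe was not detected. Slc25a14, or UCP5, read 6.43, 6.45 and 6.40 in B6 and 6.42, 6.68 and 6.55 in NZW, with overlap (-0.12, interval -0.37 to 0.13). Slc25a30, described as a kidney mitochondrial carrier, gave differences of -0.02 (interval -0.34 to 0.31) and -0.06 (interval -0.34 to 0.22) on its 2 probes. Both Ucp3 probes were undetected in all mice.

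The ADP/ATP and phosphate carriers that feed oxidative phosphorylation did not pass the test. Slc25a4, the ADP/ATP carrier of heart and muscle (ANT1), read 6.97, 6.69 and 6.62 in B6 and 7.52, 7.01 and 7.20 in NZW on 1 probe. On its other probe it read 6.15, 6.01 and 6.04 in B6 and 6.76, 6.56 and 6.23 in NZW. The strains did not overlap on either probe, yet with differences of -0.48 (SE 0.16, adjusted p = 0.067) and -0.45 (SE 0.15, adjusted p = 0.066) neither was called. Slc25a5, the widely expressed ADP/ATP carrier (ANT2), read 14.62, 14.59 and 14.64 in B6 and 14.74, 14.74 and 14.77 in NZW, without overlap (-0.13, interval -0.35 to 0.08). The phosphate carrier Slc25a3 read 11.80, 11.70 and 11.80 in B6 and between 11.78 and 12.15 in NZW, with overlap (-0.22, interval -0.50 to 0.06). The testis ADP/ATP carrier Slc25a31 was undetected on both probes.

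In the same group Slc25a25 was called, a carrier that trades ATP-Mg for phosphate and helps to set the size of the matrix nucleotide pool. It read 10.71, 10.80 and 10.48 in B6 and 10.31, 10.19 and 9.71 in NZW. All B6 mice were above all NZW mice (difference 0.59, SE 0.17, adjusted p = 0.044). With 75th percentile scaling the difference was 0.42 and the adjusted p 0.13. Its relatives Slc25a23 and Slc25a24 gave -0.12 and 0.26, neither called, and Slc25a41 was not detected.

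For the carriers of di- and tricarboxylates, 6 member probes were tested and 1 was lower in B6, beside 9.6% of all tested probes. All 6 differences lay between -0.37 and -0.14. A probe with the key of Slc25a35 but an older symbol, not counted as a member, went the other way, at 0.24. The dicarboxylate carrier Slc25a10, which exchanges malate or succinate for phosphate, read 12.71, 12.93 and 12.85 in B6 and 13.13, 13.25 and 13.23 in NZW. No mice overlapped (-0.37, SE 0.11, adjusted p = 0.045). Its second probe read 8.38, 8.46 and 8.53 in B6 and 8.49, 8.69 and 8.94 in NZW, with 1 B6 mouse inside the NZW range (-0.25, adjusted p = 0.25). The citrate carrier Slc25a1 read 9.46, 9.39 and 9.49 in B6 and 9.52, 9.87 and 9.73 in NZW, without overlap and not called (-0.26, adjusted p = 0.18). The oxoglutarate/malate carrier Slc25a11 gave -0.14 on both probes, with intervals of -0.37 to 0.09 and -0.40 to 0.12. The strains did not overlap on the first of these probes and overlapped on the second.

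Of 8 amino acid carrier probes tested 3 were lower in B6, beside 9.6% of all tested probes. No transport group was tested as a set. Slc25a29, which carries arginine, lysine and ornithine, read 6.82, 6.69 and 7.04 in B6 and 7.60, 7.80 and 7.66 in NZW. The strains were apart by more than the range within either (-0.84, SE 0.12, adjusted p = 0.002). The glutamate carrier Slc25a22 read 9.54, 9.14 and 9.19 in B6 and 9.83, 10.09 and 9.73 in NZW, also without overlap (-0.59, SE 0.15, adjusted p = 0.026). Slc25a15, which takes ornithine into the matrix for the urea cycle, read 7.23, 7.34 and 7.31 in B6 and 7.54, 7.78 and 7.96 in NZW on the probe that was called (-0.47, adjusted p = 0.036). Its other probe read 10.99, 11.14 and 11.10 in B6 and 11.24, 11.26 and 11.40 in NZW, the same direction without passing the test (-0.22, adjusted p = 0.19). Slc25a45 was the 1 probe of the group above 0, at 11.09, 10.98 and 11.15 in B6 and 10.26, 10.90 and 10.70 in NZW, without overlap and not called (0.45, adjusted p = 0.094). Slc25a44 (-0.34) and Slc25a38 (-0.12) were not called. Slc25a12, the aspartate/glutamate carrier of the malate-aspartate shuttle, overlapped between strains at 8.90 to 9.10 in B6 and 9.03 to 9.19 in NZW (-0.08, interval -0.33 to 0.17).

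Among the carriers of nucleotides and cofactors, Slc25a33 read 8.59, 8.74 and 8.38 in B6 and 9.25, 9.09 and 8.85 in NZW, without overlap (-0.49, SE 0.14, adjusted p = 0.045). The other 7 tested probes of the group were not called, the lowest at -0.65 for 1 probe of Slc25a36. The carnitine/acylcarnitine carrier Slc25a20, which brings long-chain fatty acids in for oxidation, was detected in no mouse on its single probe. The 12 genes with no tested probe under the member symbols were Slc25a2, Slc25a13, Slc25a16, Slc25a18, Slc25a20, Slc25a21, Slc25a31, Slc25a40, Slc25a41, Slc25a43, Slc25a46 and Ucp3. A probe with the key of Slc25a46 but an older symbol, not counted as a member, was detected in 6 of 6 mice and gave -0.22. Some proximal tubule markers were lower in B6. Of 14 tested marker probes 4 (28.6%) were called lower in B6 and none higher, beside 9.6% of all tested probes called lower. The calls were for 1 probe each of Lrp2, Cubn, Aqp1 and Miox. The median over the list was -0.24. The other tested probes of Lrp2 and Aqp1 were not called. That of Lrp2 read 13.34, 13.29 and 13.62 in B6 and 13.58, 13.49 and 13.66 in NZW, with overlap. A probe of Slc22a6 lay the other way, at 9.16, 9.27 and 9.08 in B6 and 8.95, 8.81 and 9.09 in NZW. The summed marker intensity was 85957, 82948 and 89517 in B6 and 118531, 119366 and 100152 in NZW, in each mouse with the largest part from Miox. The part of the proximal tubule share in the carrier differences was not tested.

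The 8 calls depended on the mice in the fit. Leaving out each mouse in turn gave 3 to 7 carrier calls, 3 without B6 mouse 2, 4 without B6 mouse 3, and 5 without B6 mouse 1 or NZW mouse 1. These counts take in probes outside the 8, such as Ucp1 without B6 mouse 1. Slc25a39, Ucp2 and Slc25a29 were called in each of these fits (largest adjusted p 6.5e-06, 0.003 and 0.011), and each of the other 5 lost its call in at least 4 of the 6.

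In BALB/C, DBA1 and 129/svj 1 carrier, Slc25a36, was called, and in 1 comparison. Between BALB/C and DBA1 1 of 11 tested rows was called, beside 5.75% of all 15818 rows. Between BALB/C and 129/svj (4.82% of all rows called), between DBA1 and 129/svj (4.48%), and for BALB/C against the mean of the 2 sensitive strains (5.99%), no carrier row was called by limma. At an unadjusted p below 0.05 the counts in these comparisons were 1, 1 and 2, and the methods' t-test, unadjusted, gave 1, 0 and 2. The median difference of the carriers was 0.10 for BALB/C against DBA1 and 0.26 for BALB/C against 129/svj, against 0.01 over all rows in both.

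The call was for Slc25a36, which carries pyrimidine nucleotides into the matrix, as Slc25a33 does. It read 7.01, 7.03 and 6.98 in BALB/C, 6.53, 6.29 and 6.24 in DBA1, and 6.76, 6.79 and 6.39 in 129/svj. The 3 BALB/C mice were above all 6 mice of the sensitive strains. The difference was 0.65 from DBA1 (SE 0.15, adjusted p = 0.033), 0.36 from 129/svj (adjusted p = 0.29) and 0.51 from their mean (adjusted p = 0.051). Leaving out any mouse of BALB/C, or mouse 2 or 3 of DBA1, or mouse 1 of 129/svj, ended the call, with adjusted p up to 0.12. The key of this row names 2 probes of the B6 and NZW table, 1 of them under an older symbol, so the row could not be tied to a single probe. The same holds for 7 of the 14 rows in all, those of Slc25a10, Slc25a13, Slc25a30, Slc25a35, Slc25a36, Slc25a37 and Slc25a46.

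**Figure D4:**
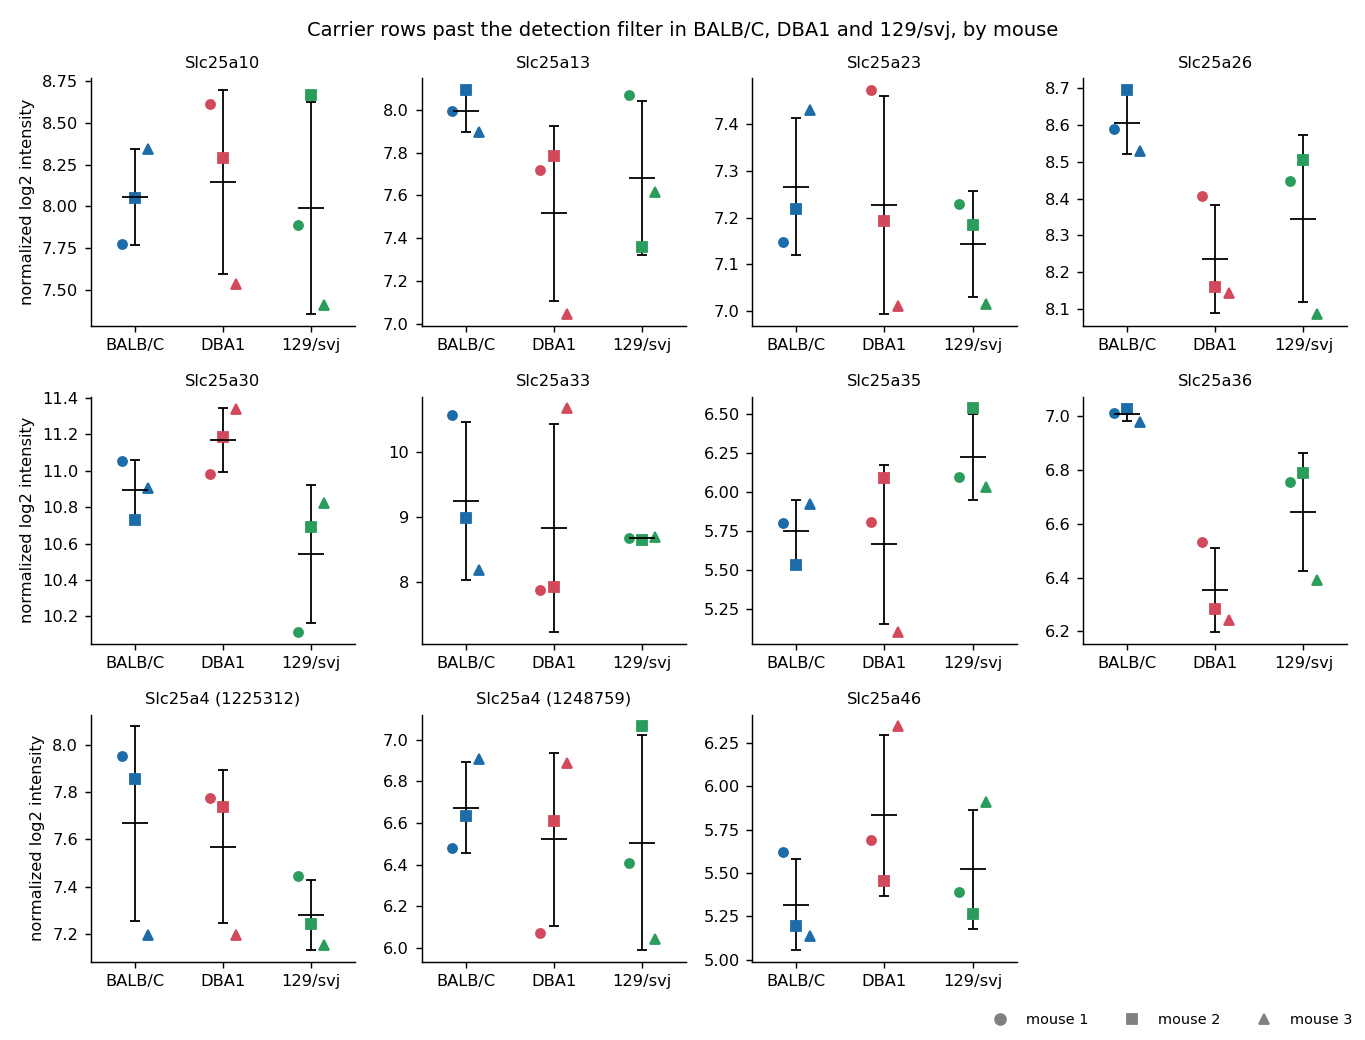
Normalized log2 intensity (y axis, its own range in each panel) in each of 3 mice of BALB/C, DBA1 and 129/svj (x axis) for the 11 carrier rows tested, with the mean and SD as bars. The 3 BALB/C mice lie above all other mice for Slc25a36 and Slc25a26, and 1 BALB/C and 1 DBA1 mouse stand apart for Slc25a33.

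Slc25a33 was the carrier with the widest spread within strains of this table. It read 10.57, 8.99 and 8.19 in BALB/C, 7.88, 7.93 and 10.68 in DBA1, and 8.67, 8.65 and 8.70 in 129/svj. BALB/C mouse 1 and DBA1 mouse 3 were high and the 129/svj mice were nearly equal. The high value was on both arrays of BALB/C mouse 1, at deposited intensities of 1597 and 1743, while the other mice except DBA1 mouse 3 (1635) lay between 340 and 610. With this spread the interval for BALB/C against DBA1 ran from -1.25 to 2.09. Over whole arrays DBA1 mouse 3 correlated at 0.957 to 0.960 with the other DBA1 arrays, against 0.984 and 0.985 between mice 1 and 2. For 129/svj mouse 3 the values were 0.959 to 0.972, against 0.979 and 0.981 between mice 1 and 2.

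The remaining named carriers of this table were not called. Slc25a30 read 11.05, 10.73 and 10.91 in BALB/C, 10.98, 11.19 and 11.34 in DBA1, and 10.11, 10.69 and 10.82 in 129/svj, with DBA1 above 129/svj in every mouse (0.63, SE 0.20, adjusted p = 0.15). Slc25a13, the liver and kidney aspartate/glutamate carrier citrin, read 7.90 to 8.09 in BALB/C, 7.72, 7.79 and 7.04 in DBA1, and 8.07, 7.36 and 7.62 in 129/svj (BALB/C minus DBA1 0.48, interval -0.04 to 1.0). Slc25a10 read 7.77 to 8.35 in BALB/C, 7.53 to 8.62 in DBA1 and 7.41 to 8.67 in 129/svj, and the strains overlapped. The 2 rows of Slc25a4 gave 0.10 (interval -0.41 to 0.61) and 0.15 (interval -0.47 to 0.78) for BALB/C against DBA1. Slc25a37, Slc25a18 and Slc25a32 were detected in no mouse of this table.

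Detection of the same key could differ between the tables. Slc25a13 was detected in all 9 mice of BALB/C, DBA1 and 129/svj, but in 1 of 6 and 0 of 6 mice on its 2 probes in B6 and NZW. The key of Slc25a37 was detected in none of the 9 mice, while its 2 probes in B6 and NZW were detected in 6 of 6 mice and, listed as Mscp, in 3 of 6. Over the 19886 rows matched by a unique key, 89.9% had the same outcome of the filter in both tables, and the mean levels of those past it in both had a Spearman correlation of 0.87 across probes, which are not independent replicates. Whether a shared key stands for the same probe sequence in both tables was not tested, and the contrast between the tables rests on these keys.

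Whether BALB/C differed from the sensitive strains of its table as B6 did from NZW was tested in a joint fit of all 15 mice. The test took the 5 of 7 member probes with a unique key that passed the detection filter (those of Slc25a18 and Slc25a32 did not). B6 and BALB/C are the only resistant strains of their tables, and mice of a strain are the replicates. Resistance thus cannot be told apart from strain background here. In this contrast of contrasts (BALB/C minus the mean of DBA1 and 129/svj, less B6 minus NZW), 1 of 5 was called beside 10.3% of 6896 probes. The call was for Slc25a26, which brings S-adenosylmethionine into mitochondria as methyl donor. It read 8.59, 8.70 and 8.53 in BALB/C, 8.41, 8.16 and 8.14 in DBA1, and 8.45, 8.50 and 8.09 in 129/svj, while in the other table it read 8.83, 8.93 and 8.97 in B6 and 9.39, 9.38 and 9.08 in NZW. Every BALB/C mouse was above the sensitive mice of its table and every B6 mouse below those of its own. The 2 differences were 0.33 (adjusted p = 0.1) and -0.37 (adjusted p = 0.12) in the joint fit, and they differed by 0.70 (SE 0.18, adjusted p = 0.021). Leaving out NZW mouse 1 or 2, B6 mouse 1 or 2, or BALB/C mouse 2 ended this call, with adjusted p up to 0.063. The 2 probes of Slc25a4 gave 0.71 (adjusted p = 0.15) and 0.67 (adjusted p = 0.24), Slc25a33 gave 1.02 (adjusted p = 0.56) and Slc25a23 gave 0.26 (adjusted p = 0.5). The medians of the proximal tubule markers also had opposite signs. For B6 against NZW the median was -0.24, over 14 probes of 9 genes. For BALB/C against the mean of DBA1 and 129/svj it was 0.18, over 7 rows of 6 genes, with 2 called higher and 1 lower. Miox, Aqp1 and Slc22a12 have no row in that table, so the medians cover different genes. The part of the proximal tubule in this contrast was not tested.

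**Figure D5:**
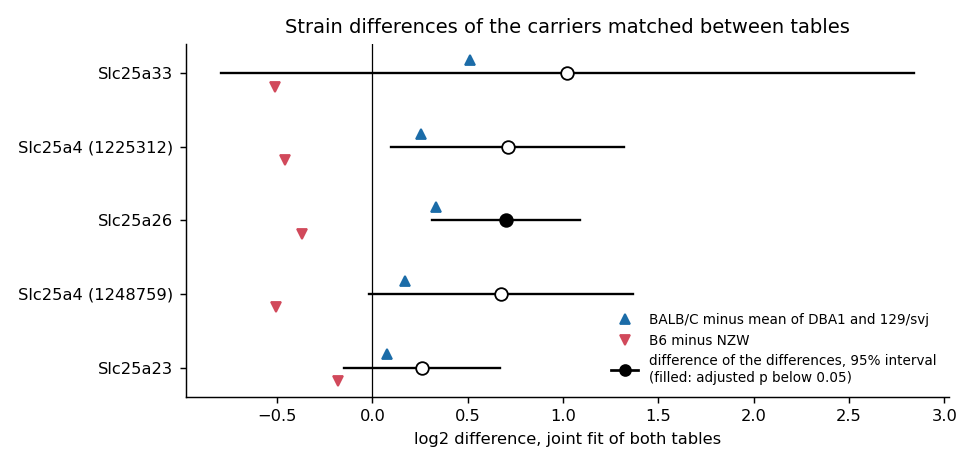
Joint fit of both tables for the 5 carrier probes with a unique key that passed the detection filter (y axis). The x axis is the log2 difference, with upward triangles for BALB/C minus the mean of DBA1 and 129/svj, downward triangles for B6 minus NZW, and circles with 95% intervals for the first minus the second. All 5 upward triangles are right of 0 and all 5 downward ones left of it, and Slc25a26, at 0.70, is the probe past the threshold.

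Genes that work with the carriers were read as a second list of 47 genes: outer membrane channels, import machinery, shuttle enzymes, and regulators. Between B6 and NZW 58 of their probes were tested, 4 were higher and 7 lower, with a median of -0.09. That is 19.0% called, close to the 18.8% of all probes. Tomm22, an outer membrane receptor for imported proteins, read 10.84, 10.75 and 10.80 in B6 and 5.77, 5.93 and 5.49 in NZW on 1 probe (5.07, SE 0.13). On its other probe it read 5.27, 5.46 and 5.56 in B6 and 5.92 to 6.0 in NZW (-0.53, adjusted p = 0.013). Both probes were called, in opposite directions, so the gene has no single direction here.

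Ppara, a nuclear receptor that drives fatty acid oxidation, read 8.60, 8.08 and 8.25 in B6 and 9.19, 9.97 and 9.47 in NZW (-1.23, SE 0.21, adjusted p = 0.004). Sfxn3, an inner membrane serine carrier of the sideroflexin family, was higher in B6 at 10.34, 10.43 and 10.33 against 9.48, 9.37 and 9.35 (0.96, SE 0.10). Mdh1, the cytosolic malate dehydrogenase of the malate-aspartate shuttle, read 5.91, 5.88 and 5.83 in B6 and 6.57, 6.78 and 6.83 in NZW on the called probe (-0.85, SE 0.11), and its other probe gave -0.29 without being called (adjusted p = 0.12). Pck1, of gluconeogenesis, fell by 0.55 in B6 against NZW on 1 of its 2 probes (adjusted p = 0.041), and the other gave -0.68 without being called (adjusted p = 0.1). For BALB/C against the mean of DBA1 and 129/svj, 17 partner rows were tested and 1, that of pyruvate carboxylase, Pcx, was called, beside 5.99% of all rows. Its key also names 2 probes of the B6 and NZW table, 1 detected in 6 of 6 mice and 1 in none. It read 7.88, 7.56 and 7.48 in BALB/C, 5.72, 5.49 and 5.86 in DBA1, and 7.20, 6.70 and 6.27 in 129/svj (1.43, SE 0.20, adjusted p = 0.0017), with all BALB/C mice above all others. Against 129/svj alone no row of the shuttle enzymes, Pcx among them, was called.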

How the data were processed

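Kidney cortex RNA of 15 mice had been measured on 18 arrays. The authors deposited, per probe and array, a BeadStudio average bead intensity with no normalization, and a detection p-value against negative control beads. Array medians of the deposited intensities ran from 81.1 to 89.8 in B6 and NZW and from 118 to 152 in the other table, and 30.5% to 36.4% of probes were detected. The intensity over background and the number of arrays limit the precision. The BeadStudio version, the genome build behind the array annotation and the probe sequences are not given in the sources used here.

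Each table was corrected by normexp in limma with an offset of 16, using detection p to place the negative controls, then quantile normalized and taken to log2, and repeat arrays were averaged. Probes detected in 3 mice or more (detection p up to 0.05) entered lmFit and eBayes (limma 3.58.1, R 4.3.3), 1 coefficient per strain, Benjamini-Hochberg over the table. The contrast between tables used 19886 rows matched by a unique key, normalized together. Tables were joined in Python 3.11.15 with pandas 2.3.3. The fit was tested on simulated data. Deviations of same-numbered DBA1 and 129/svj mice correlated at 0.19, 0.10 and 0.39, though the labels name no shared animal or batch, and a replicate block changed no carrier call between these strains. Values of some genes are not reported here.

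Named were the 10 largest called member probes per comparison, all probes of those genes and of set carriers, and the 6 largest called partners. Members and lists were chosen with earlier results of these data known. Alternatives were background, scaling, filter, repeat arrays, a replicate block, an intensity trend, a t-test, and each mouse left out. Added after seeing the data was a fit without B6 mice 2 and 3.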

Additional observations from a re-analysis of the deposited data

Results flagged for a closer look

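For Slc25a26 BALB/C minus the mean of DBA1 and 129/svj differed from B6 minus NZW. The gap was 0.70 on the log2 scale (limma contrast of contrasts, adjusted p = 0.021). Neither difference was called by itself (0.33, adjusted p = 0.1, and -0.37, adjusted p = 0.12), and the call for the gap was lost on leaving out any of 5 mice. Its values by mouse stand in the report. B6 and BALB/C are the only resistant strains of their tables, so resistance cannot be told apart from strain background.

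For Slc25a36 every BALB/C mouse was above every DBA1 and 129/svj mouse, while every B6 mouse was below every NZW mouse on the probe listed under this symbol, and the 2 differences lie 1.16 apart. This difference was not tested, since the key joins 2 probes. The B6 and NZW difference was not called (adjusted p = 0.078). The mice barely separated, with B6 mouse 2 and NZW mouse 2 both at 6.86, and in the deposited intensities these 2 mice were the other way round (188 and 182). The other probe of the same key, under an older symbol, gave -0.27 between B6 and NZW. A probe of Slc25a36 with another key gave 0.21 with overlap between the strains.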

How the results depend on the processing

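Between B6 and NZW, the 8 carrier calls became 4 with no detection filter, 4 with the plain t-test of the methods once adjusted, 16 with it unadjusted, 0 of the 5 probes left when both tables were normalized and fitted together (of the 8 called probes, 1, that of Slc25a33, was among them), and 3 without B6 mice 2 and 3. Leaving out 1 mouse gave 3 to 7. For all 16766 probes the 3159 calls became 1852 with the adjusted t-test, 4772 with it unadjusted, 2084 without B6 mouse 2, 1124 without B6 mice 2 and 3, and 678 (of 6896) in the joint fit. In the fit without B6 mice 2 and 3 the Ucp1 difference went from 2.54 to -0.12, which the choice of the mice with high Ucp1 fixes, and the lone B6 mouse is assumed to vary like the other group. With 1 mouse left out the Ucp1 difference ran from 1.12 to 3.87 and was called without B6 mouse 1 (adjusted p = 0.013). That mouse was the lowest of B6, so leaving it out could only raise the difference.

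For BALB/C against DBA1 the single call became 0 with no background correction, with an intensity trend and with the adjusted t-test, and 2 with the unadjusted t-test. In the joint fit it was 0 of 5, since the called row has no unique key and was not in that fit. Leaving out 1 mouse gave 0 to 1. For BALB/C against the mean of the sensitive strains 0 calls became 1 with detection in every mouse, 1 with the first array of mouse 1 only, and 2 with the unadjusted t-test. For BALB/C against 129/svj that test gave 1. Over all rows the 909, 763, 709 and 948 calls (BALB/C against DBA1, BALB/C against 129/svj, DBA1 against 129/svj, and BALB/C against the mean) became 587, 466, 368 and 576 with detection in every mouse, 399, 318, 218 and 294 with the adjusted t-test, and 2728, 2235, 1785 and 2187 with it unadjusted. Without BALB/C mouse 2 the first, the second and the last were 495, 484 and 503, without BALB/C mouse 1 the first and the last were 552 and 568, without DBA1 mouse 2 the first was 583, and without BALB/C mouse 3 the last was 612. The call in the contrast between tables was kept in count under all 8 other settings and ranged from 0 to 2 with a mouse left out. Over all its probes the 711 calls of 6896 became 381 of 3305 with detection in every mouse. In BALB/C, DBA1 and 129/svj that filter left 11274 of the 15818 rows.

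The labels name no animal or batch shared by mice of the same replicate number, and deviations of same-numbered mice had correlations from -0.07 to 0.01 in B6 and NZW and from -0.26 to 0.39 in the other table, where only DBA1 and 129/svj had all 3 above 0.1. With the replicate number as a block, 7 carrier probes were called between B6 and NZW, 1 between BALB/C and DBA1, 0 in the other comparisons of that table, and 1 in the contrast between tables. Slc25a10 (adjusted p = 0.083) and Slc25a15 (0.051) lost their calls under the block, and 1 probe of Slc25a4 gained one (0.067 to 0.041). The arrays give no depth beyond the detection p.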

Other observations

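Some markers outside the carriers also differed between B6 and NZW. Slc12a3, the sodium chloride transporter of the distal tubule, was called higher in B6 on 2 of its 4 tested probes, by 1.46 and 0.77 on the log2 scale, and the other 2 probes gave 0.13 and -0.14 with overlap between the strains. Of 7 tubule injury probes 2 were higher, Lcn2 by 1.80 and Spp1 by 0.69, and 3 were lower, with differences of -2.77 for Havcr1, -0.71 for Krt18 and -0.39 for Krt8.

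In the other table Cox8b, on the fat list, was lower in DBA1 than in BALB/C (BALB/C minus DBA1, 2.15) and than in 129/svj (DBA1 minus 129/svj, -2.21), and Adipoq was high in BALB/C mouse 3 (9.06) and 129/svj mouse 3 (8.65). Vdac2, an outer membrane channel on the partner list, was higher in BALB/C and in DBA1 than in 129/svj, by 0.66 and 0.65. It was lower in B6 than in NZW (-0.49). These genes were chosen for mention after their values had been seen.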
